A study of Mus musculus with 26 samples.

Results

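The 9 genes described here serve disulfide formation in the endoplasmic reticulum (ER) and the traffic between ER and Golgi: Ero1b, Sec61b, Sar1b, Sec23b, Sec24a, Sec24d, Sec31a, Kdelr2 and Kdelr3. They are 9 of the 12580 genes tested on Affymetrix arrays of mouse pancreatic islets. They were chosen by name, with earlier results of these data known. Of the 13 probe sets annotated to 1 of them alone, the brightest over all 26 arrays stood for each gene, and all 9 were above the array median on all 26 arrays. All islets came from male C57BL6 mice, aged 56 weeks (old) or 5 weeks (young). After 1 day of recovery in 11 mM glucose, islets were kept for 2 days at 3, 5.5 or 11 mM (old and young) or at 16 mM (young only), or they were taken fresh. In a separate time course, young islets were held overnight at 3 mM glucose (time 0) and then given 11 mM for 1 h or 4 h, with no group left at 3 mM for those hours. There were 2 arrays in each of the 12 groups but 4 for young islets at 11 mM. An islet is a mixed tissue of beta, alpha and delta cells with some other cells. In such bulk RNA, fewer cells of a type and less RNA per cell cannot be told apart.

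Proinsulin enters the ER through the Sec61 channel and folds there with disulfide bonds. The oxidase Ero1b, enriched in pancreatic islets, passes electrons from protein disulfide isomerases to oxygen and so keeps these enzymes ready to form bonds. Folded cargo leaves in COPII vesicles: the GTPase Sar1 starts the coat, Sec23 and Sec24 form the inner layer and Sec13 and Sec31 the outer one. Escaped ER proteins that end in a KDEL-like signal are caught by KDEL receptors in the Golgi and carried back in COPI vesicles.

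The promoter windows of 3 members held a letter pattern of the unfolded protein response and are shown for that reason. The windows run from 250 bases before to 50 bases after a transcription start (RefSeq, build GRCm38.p6), and both strands were searched for the ER stress response element (ERSE, CCAAT followed by 9 bases of any kind and CCACG), ERSE-II (ATTGG, 1 base of any kind and CCACG) and the unfolded protein response element (UPRE, TGACGTGG). These names stand for sequences known to be bound by ATF6 or XBP1, the transcription factors of that response. Capitals mark the matches.
Ero1b: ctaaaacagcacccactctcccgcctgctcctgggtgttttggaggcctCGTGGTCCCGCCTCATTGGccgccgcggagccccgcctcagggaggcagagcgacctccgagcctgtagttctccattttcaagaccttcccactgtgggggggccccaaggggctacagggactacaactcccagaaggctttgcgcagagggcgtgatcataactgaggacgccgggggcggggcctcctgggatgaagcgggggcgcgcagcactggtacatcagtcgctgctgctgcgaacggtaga
Sec24d: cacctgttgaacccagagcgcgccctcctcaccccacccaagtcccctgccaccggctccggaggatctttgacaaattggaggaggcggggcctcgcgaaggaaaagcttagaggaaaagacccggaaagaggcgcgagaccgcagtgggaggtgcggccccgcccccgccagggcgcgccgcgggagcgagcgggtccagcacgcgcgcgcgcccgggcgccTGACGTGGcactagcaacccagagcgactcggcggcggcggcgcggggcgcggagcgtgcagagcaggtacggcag
Kdelr3: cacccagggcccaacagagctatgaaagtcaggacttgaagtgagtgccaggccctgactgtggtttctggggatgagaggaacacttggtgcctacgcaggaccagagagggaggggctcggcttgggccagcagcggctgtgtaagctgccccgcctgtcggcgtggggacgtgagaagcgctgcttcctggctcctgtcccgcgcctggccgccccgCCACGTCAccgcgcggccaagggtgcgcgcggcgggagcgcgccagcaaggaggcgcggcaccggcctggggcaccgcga
All 3 windows are printed along the plus strand. The Ero1b window (chr13:12565633-12565932) held an ERSE that reads on the minus strand, at positions -201 to -183 from the start. The Sec24d window (chr3:123267246-123267545) held a UPRE on the plus strand at positions -26 to -19. In the Kdelr3 window (chr15:79516158-79516457) a UPRE on the minus strand lay at positions -30 to -23. Of all 32851 promoter windows, 0.119% held the ERSE, 0.0365% the ERSE-II and 0.676% the UPRE. The 10 windows matched to 8 of the members held no other match to these letters. A match is a description of the window, and Kdelr2 had no window in the table used.

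The Gapdh control split the arrays into 2 sets, which no label names, by its 5′ signal relative to its 3′ signal. This ratio was 1.03 to 1.48 on the 12 arrays of set A (all old islets, fresh young islets and young 11 mM replicates 3 and 4) and 0.1 to 0.277 on the 14 arrays of set B (all other young islets). Within young islets at 11 mM, Kdelr2 gave 4337 and 4256 on the set A arrays and 1008 and 993 on the set B arrays, a log2 difference of 2.08. Sec24a differed the same way by 1.17, and Sec31a went the other way, with 675 and 666 in set A against 1752 and 1627 in set B. All values are the deposited linear intensities, and every difference between 2 groups is taken within a set. The interaction of glucose with age sets a difference within set A against one within set B. The beta cell hormone gene Ins2 read 2230 to 5224 over all arrays, and counts and sums of cell type markers stand beside the results.

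**Figure D1:**
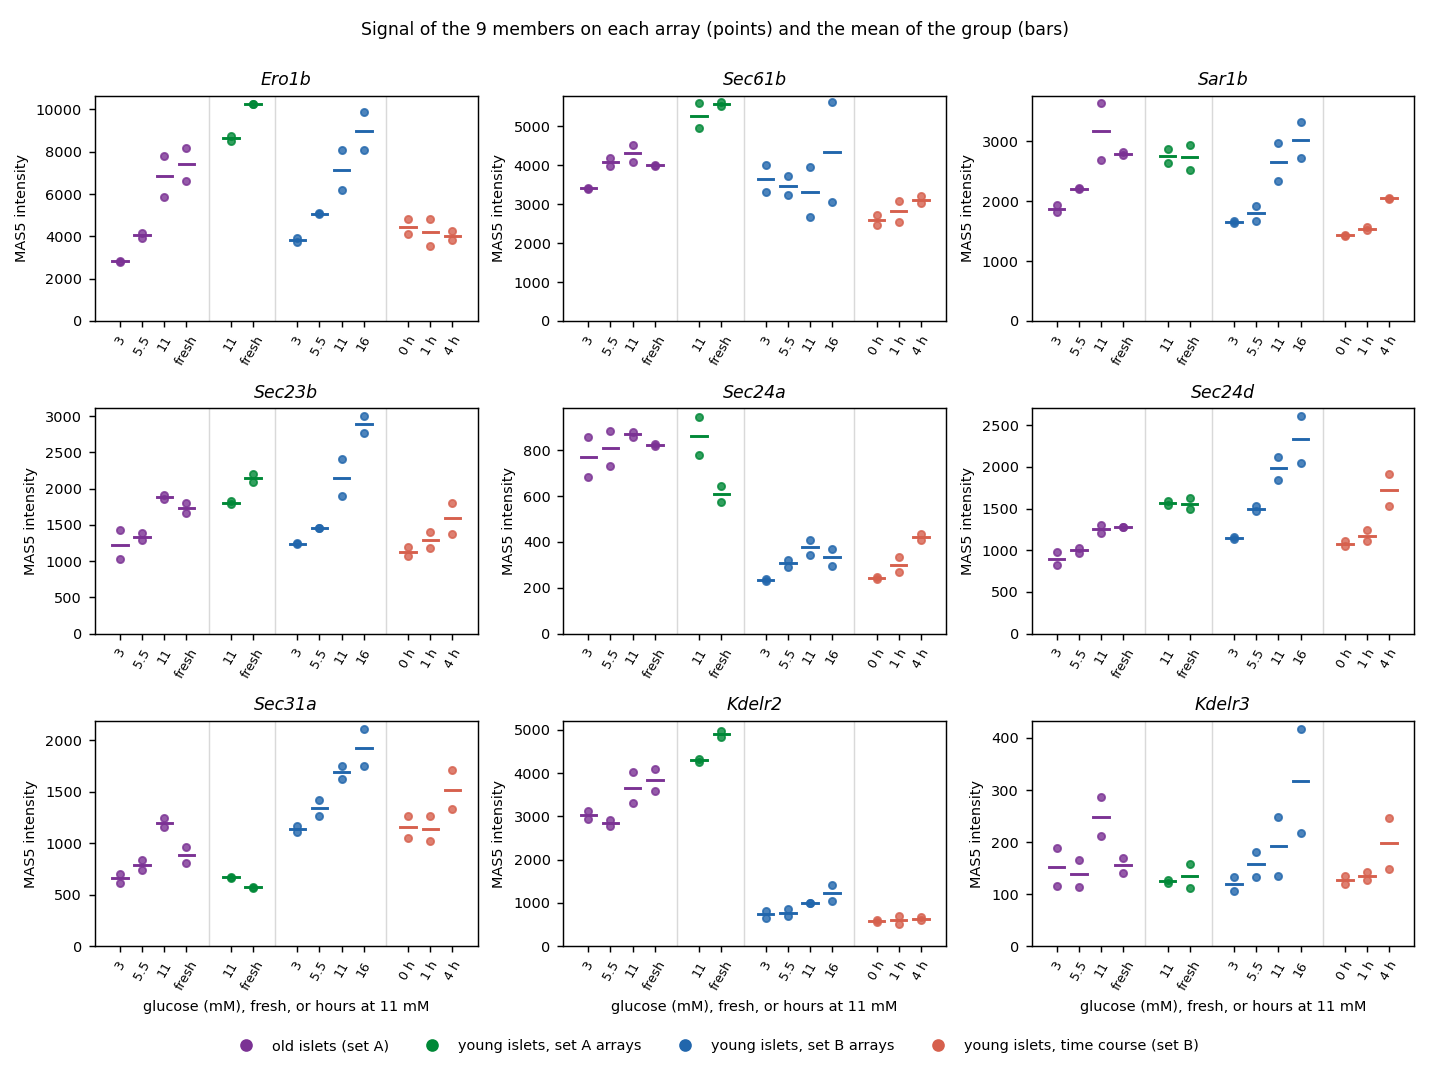
Deposited linear intensity of the 9 genes on each of the 26 arrays, 1 panel per gene and 1 point per array, grouped by age, array set, glucose (mM) and hours. Kdelr2 and Sec24a lie higher on set A arrays, Sec31a lies lower there, and within each set most members read higher at 11 or 16 mM than at 3 mM.

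In young islets, 8 of the 9 genes rose after 2 days at 16 mM against 3 mM glucose. All genes of the oxidase, the COPII coat and the KDEL receptors in the list were among them, and Sec61b did not pass the test. For comparison, 14.5% of all genes tested rose, at a Benjamini-Hochberg adjusted p under 0.05 in limma. The median log2 difference was 0.86 over the 9 members and 0.011 over all genes. The comparison of 11 with 3 mM, which shares the 3 mM arrays, had 7 members higher (all but Kdelr3 and Sec61b), against 13.3% of all genes.

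Ero1b (chr13:12565818-12609533, GRCm38.p6) read 3753 and 3899 at 3 mM, 5032 and 5103 at 5.5 mM, 8076 and 6178 at 11 mM, and 8097 and 9865 at 16 mM on set B arrays. No 2 concentrations overlapped, although the higher 11 mM array and the lower 16 mM array nearly met. The log2 difference was 1.22 ± 0.15 (SE) at 16 against 3 mM (adjusted p = 8.01e-06) and 0.88 ± 0.15 at 11 against 3 mM (adjusted p = 0.000303). On the original scale Ero1b averaged 8981 ± 1250 at 16 mM and 3826 ± 103 at 3 mM (SD, n = 2 each).

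The other 2 probe sets of Ero1b also rose. At 16 against 3 mM, the second by mean brightness differed by 2.47 on the log2 scale and the third by 2.83. The third read 19 on both 3 mM arrays, below their medians of 28 and 32, so the size of its differences from 3 mM is not firm. Both also rose at 5.5 against 3 mM, by 1.02 and 1.23, where the brightest probe set gave 0.40 (adjusted p = 0.132). So the direction at 16 mM was shared by all 3 probe sets, and the size depended on which was read. With the mean of the 3 in place of the brightest, the difference was 2.17.

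**Figure D2:**
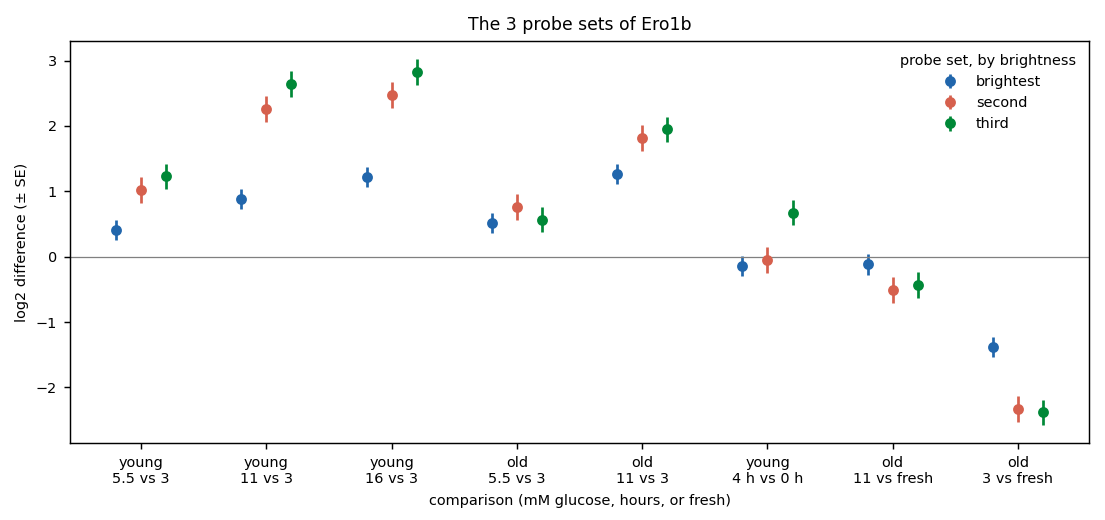
Log2 differences (± SE) of the 3 Ero1b probe sets, in order of mean brightness, in 8 comparisons named on the horizontal axis. At 16 against 3 mM in young islets the points stand at 1.22, 2.47 and 2.83, and at 4 h against time 0 at -0.14, -0.05 and 0.67.

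Among the COPII genes, the inner coat subunit Sec23b, which triggers GTP hydrolysis by Sar1, read 1246 and 1240 at 3 mM, 1462 and 1458 at 5.5 mM, 1901 and 2405 at 11 mM, and 2765 and 3008 at 16 mM. No 2 concentrations overlapped. Its log2 difference at 16 against 3 mM was 1.20 ± 0.14 (adjusted p = 4.42e-06).
The cargo-binding subunit Sec24d read 1155 and 1133 at 3 mM, 1474 and 1526 at 5.5 mM, 1849 and 2116 at 11 mM, and 2047 and 2613 at 16 mM. Only the 11 and 16 mM arrays overlapped, and the log2 difference at 16 against 3 mM was 1.01 ± 0.12 (adjusted p = 6.21e-06).
The GTPase Sar1b read 1627 and 1664 at 3 mM, 1664 and 1924 at 5.5 mM, 2336 and 2960 at 11 mM, and 2709 and 3321 at 16 mM. One array at 3 mM equalled one at 5.5 mM, and the arrays at 11 and 16 mM, which overlapped each other, lay above both. The log2 difference at 16 against 3 mM was 0.86 ± 0.13 (adjusted p = 7.5e-05).
The outer coat subunit Sec31a read 1165 and 1110 at 3 mM, 1417 and 1267 at 5.5 mM, 1752 and 1627 at 11 mM, and 2110 and 1746 at 16 mM. Its arrays at 11 and 16 mM overlapped, and the log2 difference at 16 against 3 mM was 0.75 ± 0.14 (adjusted p = 0.000412).

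Sec24a, another cargo-binding subunit, had the smallest difference of the members that passed. It read 230 and 240 at 3 mM, 292 and 322 at 5.5 mM, 342 and 410 at 11 mM, and 296 and 370 at 16 mM. The 16 mM arrays were above the 3 mM arrays and overlapped those at 5.5 and 11 mM. The log2 difference at 16 against 3 mM was 0.47 ± 0.14 (adjusted p = 0.0186), and it no longer passed without any 1 of 3 arrays: 3 mM replicate 1 (adjusted p = 0.101), 3 mM replicate 2 (0.0587) and 16 mM replicate 2 (0.218). A second, dim Sec24a probe set gave -0.09 and did not pass, and the mean of both gave 0.19 (adjusted p = 0.38). At 11 against 3 mM Sec24a rose by 0.64 (adjusted p = 0.00266), but not without 11 mM replicate 2 (0.51, adjusted p = 0.0523) or as the mean of both (0.27, adjusted p = 0.199).

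Of the KDEL receptors, Kdelr2 read 660 and 812 at 3 mM, 692 and 852 at 5.5 mM, 1008 and 993 at 11 mM, and 1049 and 1407 at 16 mM. The arrays at 3 and 5.5 mM overlapped, and those at 11 and 16 mM lay above them. A second Kdelr2 probe set gave 0.97 on the log2 scale at 16 against 3 mM (adjusted p = 0.00136). At 11 against 3 mM that probe set gave 0.52 and did not pass (adjusted p = 0.0688). The brightest Kdelr2 probe set gave a log2 difference of 0.72 ± 0.15 at 16 against 3 mM (adjusted p = 0.00107). At 11 against 3 mM it rose by 0.44 (adjusted p = 0.0329), a call lost without 3 mM replicate 1 (0.30, adjusted p = 0.294) and without 11 mM replicate 1 or 2 (0.109 each).
Kdelr3 gave low readings, with 106 and 132 at 3 mM, 133 and 181 at 5.5 mM, 134 and 249 at 11 mM, and 218 and 417 at 16 mM. Both 16 mM arrays were above both 3 mM arrays. Its log2 difference of 1.24 ± 0.30 at 16 against 3 mM (adjusted p = 0.00404) rested on the second 16 mM array, since without it the value was 0.80 (adjusted p = 0.107). At 11 against 3 mM it did not pass (0.57, adjusted p = 0.182), except with the replicate number as a block (adjusted p = 0.0216). Without 11 mM replicate 1 the difference was 0.98.

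Sec61b, the beta subunit of the protein channel, read 3310 and 3999 at 3 mM, 3227 and 3720 at 5.5 mM, 2677 and 3959 at 11 mM, and 3047 and 5629 at 16 mM. Its groups overlapped at every concentration, and the log2 difference at 16 against 3 mM was 0.19 ± 0.20 (adjusted p = 0.531). The 16 mM replicates stood far apart, and without replicate 1 the difference was 0.63 (adjusted p = 0.0127).

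Between neighbouring concentrations fewer members passed. At 5.5 against 3 mM, 0 of 9 passed in limma (6.06% of all genes changed) and 3 had an unadjusted p under 0.05. With the replicate block these 3 passed: Ero1b (adjusted p = 0.0385), Sec24d (0.0184) and Sec24a (0.0454). At 11 against 5.5 mM, Sar1b and Sec23b rose, each by 0.55 on the log2 scale (adjusted p = 0.0258 and 0.0417), where 1.46% of all genes rose. Both calls were lost without 5.5 mM replicate 1 (adjusted p = 0.327 for Sar1b and 0.244 for Sec23b) or 11 mM replicate 2 (0.377 and 0.443), and that of Sec23b also without 5.5 mM replicate 2 (0.106) or either set A array at 11 mM (0.0546 and 0.0547). The replicate block brought that count to 5 by adding Ero1b, Sec24d and Sec31a. Ero1b (0.48, adjusted p = 0.1) also passed without the array set (0.022), after quantile normalization (0.0314) and as the mean of its probe sets (1.04, adjusted p = 0.000279), and its second probe set gave 1.24 (adjusted p = 0.00126). At 16 against 11 mM, 0 of 9 passed in limma, 3 had an unadjusted p under 0.05, and 0.00795% of all genes changed. The widest 95% interval of that difference was that of Kdelr3, 0.04 to 1.31.

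Some other measures also differed between 16 and 3 mM in these islets. At 16 against 3 mM, 7 of 10 beta cell markers rose, and their summed intensity was 42961 to 47866 at 16 mM and 21284 to 23899 at 3 mM, with none at 0. The delta cell sum was 10843 to 11561 at 16 mM and 7509 to 8444 at 3 mM, with 1 of 3 markers higher. The alpha cell sum was 18921 to 24873 and 14347 to 18156, and the ductal cell sum 5746 to 6166 and 6598 to 7168, in the same order, with 0 of 4 and 0 of 5 markers called. Of the other lists, 1 of 9 acinar and 1 of 10 macrophage markers rose, and 1 of 9 endothelial and 1 of 9 stellate cell or fibroblast markers fell. The cre-3 spike control overlapped, with 7686 and 11271 at 16 mM against 6495 and 8231 at 3 mM. Their part in the results was not tested. In a fit without the array set, Kdelr2, Sec24a and Sec31a no longer passed at 16 against 3 mM (adjusted p = 0.371, 0.337 and 0.135).

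**Figure D3:**
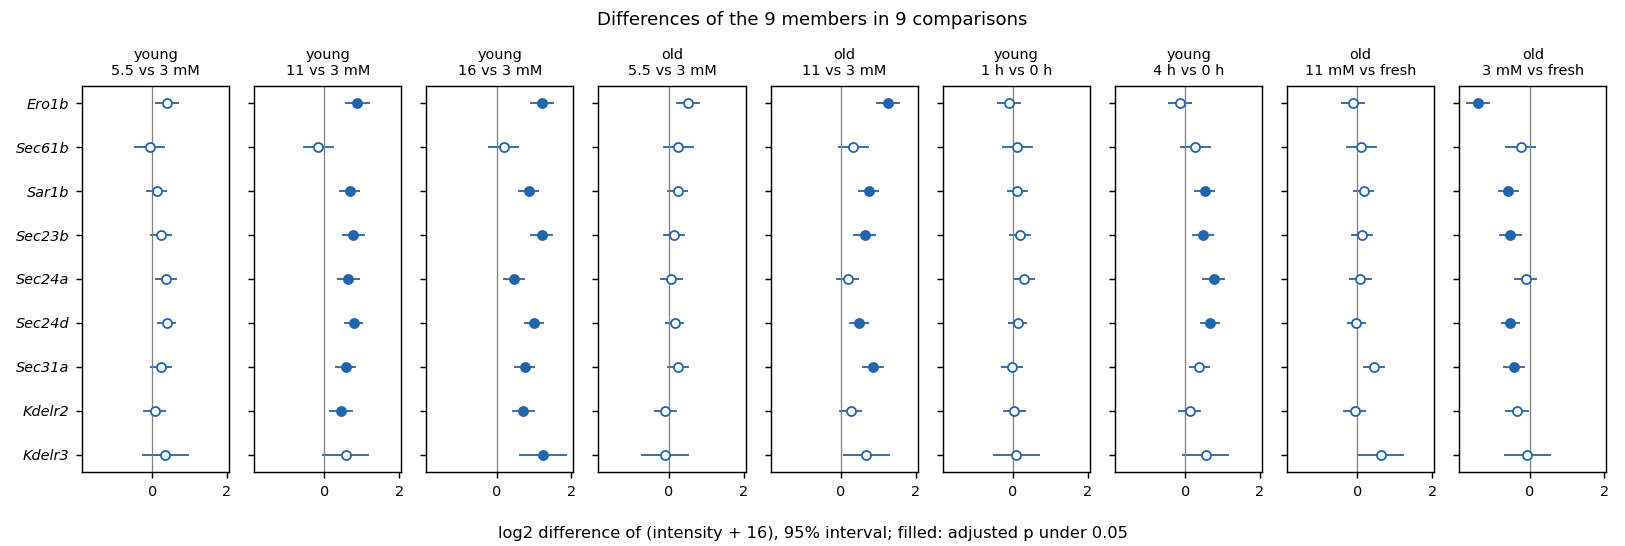
Log2 differences of the 9 genes in 9 comparisons, with 95% intervals; filled points have an adjusted p under 0.05. In the panel of 16 against 3 mM, Ero1b (1.22), Sec23b (1.20) and Sec24d (1.01) stand well right of 0 and the interval of Sec61b (0.19) includes 0.

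In old islets at 11 against 3 mM, 5 of the 9 genes rose: Ero1b and 4 COPII genes. Of all genes tested, 13.9% rose. Ero1b read 7811 and 5880 at 11 mM, against 2790 and 2845 at 3 mM, with 4160 and 3926 at 5.5 mM between them. All 3 concentrations were separate, and the log2 difference at 11 against 3 mM was 1.26 ± 0.15 (adjusted p = 1.02e-05).
Sec31a read 1156 and 1244 at 11 mM, against 614 and 705 at 3 mM, a log2 difference of 0.85 ± 0.14 (adjusted p = 0.000169). Sar1b read 2687 and 3642 at 11 mM, against 1930 and 1809 at 3 mM, a difference of 0.74 ± 0.13 (adjusted p = 0.000467). For both genes the 11 mM arrays lay above all old arrays at 3 mM. Sec31a did not pass in the fit without the array set (adjusted p = 0.1).
Sec23b read 1853 and 1913 at 11 mM, against 1023 and 1423 at 3 mM (log2 difference 0.63 ± 0.14, adjusted p = 0.00295). Sec24d read 1305 and 1204 at 11 mM, against 819 and 974 at 3 mM (0.48 ± 0.12, adjusted p = 0.0075). Both lost the call without old 3 mM replicate 1 (adjusted p = 0.101 for Sec23b and 0.126 for Sec24d), the array with the lowest value of each, and Sec24d also without old 11 mM replicate 1 (0.0626).

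The other 4 members did not pass in old islets in the fit of group means and array set. Kdelr2 read 4023 and 3300 at 11 mM, against 2935 and 3129 at 3 mM (0.26, adjusted p = 0.215). Kdelr3 read 211 and 287, against 115 and 188 (0.68, adjusted p = 0.111). Sec24a read 860 and 881, against 683 and 858 (0.18, adjusted p = 0.401), and Sec61b 4089 and 4523, against 3417 and 3397 (0.33, adjusted p = 0.241). For all 4 genes, both 11 mM values of the brightest probe set were above both 3 mM values. The second Kdelr2 probe set read 1459 and 858 at 11 mM, against 1032 and 1174 at 3 mM (0.02). The second, dim Sec24a probe set gave -0.32, and neither of these passed. At 5.5 against 3 mM, 0 of 9 passed in limma (4.69% of all genes changed), 1 with an unadjusted p under 0.05. At 11 against 5.5 mM, Ero1b (0.74), Sec31a (0.60) and Sar1b (0.50) rose, where 2.35% of all genes rose. Without 1 array at a time, 0 to 2 of these passed: all 3 were lost without either 5.5 mM array (adjusted p = 0.0664 to 0.208), Ero1b also without 11 mM replicate 1 (0.11), and Sec31a and Sar1b without 11 mM replicate 2 (0.112 and 0.377). Beside these results, 8 of 10 beta cell markers rose at 11 against 3 mM, with sums of 43102 to 51788 at 11 mM and 24110 to 25795 at 3 mM. The alpha cell sum was 20649 to 24626 at 11 mM and 17035 to 18368 at 3 mM, and the delta cell sum 11657 to 12622 and 9301 to 10636, with 0 of 4 and 1 of 3 markers called. The ductal cell sum was 4545 to 4788 at 11 mM and 5996 to 6077 at 3 mM, with 1 of 5 markers lower. The cre-3 control read 11763 and 10647 at 11 mM, against 8830 and 9424 at 3 mM, and the part of all these was not tested.

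Whether the response to 11 against 3 mM differs with age was tested as an interaction, since old and young islets at 3 mM lie in different array sets. The old response was read on set A arrays and the young one on set B arrays. Age and array set cannot be told apart in this interaction. In limma, 0 of 9 members passed and 1, Sec24a, had an unadjusted p under 0.05, where 0.143% of all genes changed. The response of old islets minus that of young islets was 0.38 for Ero1b (95% interval -0.08 to 0.84), -0.46 for Sec24a (-0.88 to -0.03) and 0.49 for Sec61b (-0.09 to 1.08). The sign for Ero1b depended on the probe set: the second gave -0.44, the third -0.69 and the mean of the 3 gave -0.25, and none passed. With intervals this wide, a difference of moderate size was not detectable. By the brightest probe sets, all 9 members gave positive differences at 11 against 3 mM in old islets. In young islets all but Sec61b (-0.16) did.

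After 4 h at 11 mM, 4 COPII genes were higher than at time 0, and Ero1b was not. Of all genes tested, 5.72% rose over these hours. Sec24a read 249 and 237 at time 0, 333 and 270 at 1 h, and 435 and 409 at 4 h, a log2 difference of 0.76 ± 0.14 at 4 h against time 0 (adjusted p = 0.00153). Sec24d read 1107 and 1051 at time 0, 1242 and 1106 at 1 h, and 1918 and 1526 at 4 h (0.66 ± 0.12, adjusted p = 0.00152). For both genes the 4 h arrays lay above all earlier ones.
Sar1b read 1438 and 1413 at time 0, 1510 and 1561 at 1 h, and 2041 and 2049 at 4 h (0.52 ± 0.13, adjusted p = 0.0154). Sec23b read 1190 and 1065 at time 0, 1398 and 1183 at 1 h, and 1805 and 1372 at 4 h (0.48 ± 0.14, adjusted p = 0.036). Sar1b was separate at 4 h, whereas the lower 4 h array of Sec23b lay below the higher 1 h array. Without 1 array at a time, the adjusted p of Sar1b was 0.0717 to 0.095, and Sec23b lost its call without either time 0 array or without 4 h replicate 1 (0.073 to 0.38). Sec24d lost it without 4 h replicate 1 (0.0506), and Sec24a as the mean of its probe sets (0.42, adjusted p = 0.0709). Without the array set, Sec24a (0.189) and Sec23b (0.107) did not pass.

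Ero1b read 4799 and 4107 at time 0, 4808 and 3564 at 1 h, and 4229 and 3831 at 4 h. These arrays overlapped at all 3 times, and the log2 difference at 4 h was -0.14 ± 0.15 (adjusted p = 0.659). Of its other probe sets, the second gave -0.05 and the third gave 0.67 (adjusted p = 0.0317), a call lost without time 0 replicate 2 (0.43, adjusted p = 0.349). Sec31a (0.38, adjusted p = 0.088) and Kdelr3 (0.55, adjusted p = 0.294) passed only with the replicate block (adjusted p = 0.0115 and 0.0466), apart from Sec31a without 4 h replicate 2 (0.0389). At 1 h, 0 of 9 members passed in limma and none had an unadjusted p under 0.05, where 0.262% of all genes changed. The cre-3 control read 6605 and 6128 at 4 h, against 6317 and 6047 at time 0, and the summed acinar cell markers read 2130 and 969 at 4 h, against 6688 and 996 at time 0. The part of the acinar markers, of which 9 of 14 were measured, was not tested.

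The 2 responses of young islets to 11 mM were then set against each other, a comparison added after the values were seen. For Ero1b the difference after 2 days exceeded that at 4 h by 1.02 on the log2 scale (SE 0.22, 95% interval 0.57 to 1.48, adjusted p = 0.00705). It was the only member of the 9 to pass, where 3.44% of all genes passed in that direction, and its second probe set gave 2.31. For Sec24d the 2 responses differed by 0.12 (-0.24 to 0.49) and for Sec24a by -0.12 (-0.54 to 0.31). The starting points differ, since the time course islets had been at 3 mM overnight and the cultured ones for 2 days.

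**Figure D4:**
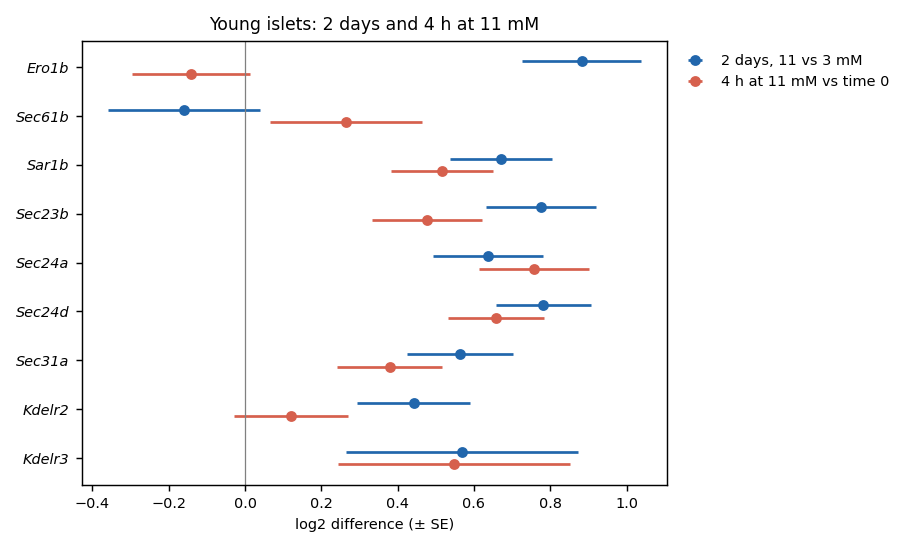
Log2 differences (± SE) of the 9 genes in young islets after 2 days at 11 against 3 mM and after 4 h at 11 mM against time 0. For Ero1b the points lie at 0.88 and -0.14, whereas for Sec24d they lie at 0.78 and 0.66.

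Against fresh islets, none of the 9 genes passed the test after culture at 11 mM, and 5 did in old islets after culture at 3 mM. These calls are from the fit without a replicate block, and with it some members also passed at 11 mM. At 11 mM against fresh, 0 of 9 members passed in limma in old islets (5.56% of all genes changed) or in young islets (4.19%), with 1 unadjusted p under 0.05 in each. At 3 mM against fresh, 5 members fell in old islets, where 18.5% of all genes fell. Ero1b read 2790 and 2845 at 3 mM, against 8187 and 6624 in fresh islets, and fell by 1.38 on the log2 scale (adjusted p = 1.35e-06). Sar1b (-0.57), Sec23b (-0.52), Sec24d (-0.51) and Sec31a (-0.41) also fell. Without old 3 mM replicate 1, Sec23b (-0.28, adjusted p = 0.212), Sec24d (-0.39, 0.0687) and Sec31a (-0.32, 0.199) did not pass. Sec23b also did not pass without fresh replicate 2 (0.0679), nor Sec31a without fresh replicate 1 (0.221) or without the array set (0.407). Young islets at 3 mM lie in another array set than fresh young islets and were not compared. The 9 measured acinar markers, none of them at 0, summed to 323 to 810 in old islets at 3 mM, 673 to 1088 at 11 mM and 21051 to 37740 in fresh old islets, with 9 of 9 lower at 3 mM and 8 of 9 lower at 11 mM. Of the beta cell markers, 8 of 10 fell at 3 mM against fresh. The endothelial sum was 517 to 713 at 3 mM, 534 to 600 at 11 mM and 3112 to 3126 in fresh old islets, with 9 of 9 markers lower at either concentration. The macrophage sum was 2643 to 3298 at 3 mM and 4260 to 5160 in fresh old islets, with 4 of 10 markers lower and 2 higher. The ductal cell sum was 5996 to 6077 at 3 mM and 3713 to 4071 in fresh old islets, with 2 of 5 markers higher. Of the 9 stellate cell or fibroblast markers 3 were higher and 1 lower at 3 mM. In young islets of set A the acinar sum was 850 and 623 at 11 mM, against 17786 and 9991 in fresh islets. The endothelial sum was 751 and 659 at 11 mM, against 3461 and 3039 in fresh young islets. The ductal cell sum went the other way, with 3514 and 3694 at 11 mM against 3487 and 3154 in fresh young islets. The part of these lists was not tested.

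Between ages, Sec31a was higher in old islets in both comparisons that stay within set A. It read 1156 and 1244 in old against 675 and 666 in young islets at 11 mM, a log2 difference of 0.82 (adjusted p = 0.000546), where 10% of all genes were higher in old islets. In fresh islets it read 959 and 811 in old, against 563 and 579 in young (0.61, adjusted p = 0.00838), where 5.75% of all genes were higher in old islets. Both groups were separate in each case, and the fresh difference did not pass without old fresh replicate 1 (adjusted p = 0.118) or young fresh replicate 1 (0.0535). In the fit without the array set, the value at 11 mM dropped to 0.17 (adjusted p = 0.779), while in fresh islets it kept its size and lost the call (0.61, adjusted p = 0.388). In fresh islets 7 of 9 members had an unadjusted p under 0.05: Sec31a and Sec24a (0.43) with positive values, and Ero1b (-0.48), Sec61b (-0.48), Kdelr2 (-0.36), Sec23b (-0.31) and Sec24d (-0.28) with negative ones. Only Sec31a among them passed after adjustment in the fit without a replicate block, and the median of the 9 was -0.28. In fresh islets the second Ero1b probe set gave -0.66 (adjusted p = 0.0478), a call lost after quantile normalization (-0.44, adjusted p = 0.155). The third Ero1b probe set gave -0.42 there and did not pass (adjusted p = 0.2). Kdelr3 passed at 11 mM only, with 211 and 287 in old against 127 and 122 in young islets (0.90, adjusted p = 0.0491), a call lost without any 1 of these 4 arrays (0.0555 to 0.299). Ero1b read 7811 and 5880 in old against 8764 and 8514 in young islets at 11 mM (-0.35, adjusted p = 0.135), and it passed without old replicate 1 (-0.55, adjusted p = 0.0433). Its second probe set read 3955 and 2131 in old against 5625 and 5403 in young islets (-0.92, adjusted p = 0.00424), a call lost without old replicate 2 (-0.48, adjusted p = 0.13), while the third did not pass (-0.51, adjusted p = 0.0864). Beside these, 7 of 9 markers of stellate cells or fibroblasts were lower in fresh old islets, with sums of 1338 to 1393 in old and 3594 to 5248 in young islets, none at 0, and 6 of 9 were lower at 11 mM, with 1877 to 2020 in old and 4967 and 5457 in young islets of set A. In fresh islets the beta cell sum was 42840 to 55140 in old and 60688 to 62815 in young (1 of 10 lower), the alpha cell sum 17232 to 24853 and 31027 to 32451 (2 of 4 lower) and the delta cell sum 10579 to 11919 and 15134 to 15517 (2 of 3 lower). The acinar sum was 21051 to 37740 in old and 9991 to 17786 in young (0 of 9 called), the macrophage sum 4260 to 5160 and 3441 to 3727 (0 of 10 called) and the ductal cell sum 3713 to 4071 and 3154 to 3487 (1 of 5 higher). At 11 mM in set A the macrophage sum was 3533 and 3419 in old and 2808 and 2137 in young (2 of 10 higher), and the ductal cell sum 4545 and 4788 in old and 3514 and 3694 in young (1 of 5 higher). There the alpha cell sum was 24626 and 20649 in old and 26885 and 30749 in young, and the endothelial sum 534 and 600 in old and 751 and 659 in young. The beta, delta and acinar cell sums overlapped between ages at 11 mM. The cre-3 control read 11763 and 10647 in old and 13887 and 15495 in young islets at 11 mM. In fresh islets it read 13251 and 8519 in old and 15072 and 15705 in young. The part of these lists and of this control was not tested.

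The wider pathway was read from lists that leave out the 9 members. At 16 against 3 mM in young islets, 7 of 14 ER oxidation genes rose (median 0.52 on the log2 scale), as did 8 of 14 COPII and ER exit genes (0.48), 7 of 16 cargo receptors (0.34), 13 of 15 COPI and retrieval genes (0.57), 13 of 16 translocon and signal peptidase genes (0.79) and 10 of 13 SNAREs and tethers (0.72). None of these lists held a gene that fell. For all genes the share that rose was 14.5% and the median was 0.011. In old islets at 11 against 3 mM the counts that rose were 2, 5, 4, 6, 10 and 6 of the same lists, with 1 translocon gene lower, where 13.9% of all genes rose, and the 2 of 14 oxidation genes are near that share. At 4 h against time 0 they were 0, 5, 1, 2, 1 and 3, where 5.72% of all genes rose, and the counts of 0 and 1 are at or near that share.

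The named genes of the lists were those with the smallest adjusted p, and their values here are log2 differences at 16 against 3 mM in young islets. Of the oxidation genes, Erp44, which retains Ero1 in the early secretory pathway, rose by 0.92, and the disulfide isomerases Pdia3, Pdia6 and P4hb by 0.71, 0.70 and 0.64. At ER exit, the scaffold Sec16b rose by 1.84, Sec16a by 1.00, the outer coat subunit Sec13 by 0.86 and Sar1a, the paralogue of Sar1b, by 0.91. The Sar1a value was 0.17 with the mean of its probe sets. The cargo receptors Surf4 (1.35), Lman2 (0.80), Tmed10 (0.72) and Bcap31 (0.59) rose. Of the COPI machinery Copa (0.71), Copz2 (1.00), Arfgap3 (0.67) and Gbf1 (0.71) rose, as did the signal recognition particle receptor subunit Srpr (0.85) and the signal peptidase subunits Spcs1 (0.89), Spcs2 (0.73) and Spcs3 (0.82). The tether regulator Rab1a (0.85) and the ER-to-Golgi proteins Yipf5 (0.98), Gosr2 (0.73) and Sec22b (0.73) rose. With the mean of the probe sets Srpr gave 0.40, Rab1a 0.47 and Gosr2 0.45. Pdia3, Copa, Copz2 and Srpr did not pass without the array set (adjusted p = 0.184, 0.0839, 0.118 and 0.155), nor P4hb without 16 mM replicate 2 (0.42, adjusted p = 0.0654).

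Of 11 regulators of ER secretory genes, 3 rose and 2 fell at 16 against 3 mM in young islets. Of the 12580 genes tested, 14.5% rose and 3613 changed in either direction, so counts this small say little about the list. Creb3l2, a membrane-bound transcription factor of secretory pathway genes, differed by 0.98 in young islets at 16 against 3 mM (0.51 as the mean of its probe sets) and by 0.92 in old islets at 11 against 3 mM (0.59 as that mean). Ern1, the ER stress sensor that splices Xbp1 mRNA, fell by 0.80 and 0.52 in the same comparisons, and by 0.73 at 4 h against time 0. Mbtps2, the site-2 protease that releases such membrane-bound factors, fell by 0.42, 0.43 and 0.58 in these 3 comparisons. Ern1 in old islets did not pass without 11 mM replicate 1 (-0.39, adjusted p = 0.0774). Without the array set, Ern1 in old islets (0.0879) and Mbtps2 at 16 mM and in old islets (0.0741 and 0.0776) did not pass. Atf4, the translation-controlled stress factor, fell by 0.83 at 4 h against time 0 (-0.41 as the mean of its probe sets, adjusted p = 0.109), and differed by -0.07 and 0.19 in the other 2 comparisons, which did not pass.

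The members were not equally alike over the 26 arrays. Each gene was centred within 4 blocks (old islets, young set A, cultured young set B and the time course) and correlated with the mean of the other members. Pearson's r was 0.945 for Sec24d, 0.929 for Sec23b and 0.908 for Sar1b, and lowest for Sec24a (0.629) and Sec61b (0.509). It was 0.728 for Ero1b. The closest pair was Sec24d and Sec23b (0.928) and the least alike Sec31a and Sec61b (0.247). Of all other genes, the 5 nearest to the mean of the 9 members were Slc26a2 (0.966), Sec61a1 (0.961), Jtb (0.961), Rwdd4a (0.952) and Sphkap (0.951). Sec61a1 is the pore subunit of the channel to which Sec61b belongs, and it rose by 0.77 at 16 against 3 mM in young islets and by 0.74 at 11 against 3 mM in old islets. These correlations describe arrays that share their scaling and their culture series.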

How the data were processed

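Total RNA of 26 islet samples was measured on 1 array each. Each deposited value is a linear intensity per probe set. The submitters' processing notes name MAS5, its version not given in the sources used here, and the authors had scaled every array to a trimmed mean intensity of 150 (2% off either end). Per the labels' protocols, RNA was amplified through 2 cycles of cDNA synthesis. The number of arrays limits the precision.

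Of 45101 probe sets, 34945 carry 1 gene symbol and 932 carry several, among them a probe set shared by Sec61b and another gene, and these were not used. Intensities were transformed as log2(value + 16), so changes of dim genes are understated. The filter kept 23047 probe sets that exceeded their array's median on 2 or more arrays, and the brightest stood for each gene (12580). A model of 12 group means and the array set was fitted to all 26 arrays with limma 3.58.1 in R 4.3.3, with an intensity trend (13 residual and 7.02 prior degrees of freedom). Only young islets at 11 mM inform the set term, so each difference between 2 groups rests on arrays of 1 set. The SE and p-value of a difference use the spread over all 26 arrays. Calls are at a Benjamini-Hochberg adjusted p under 0.05 over all genes, in 16 comparisons and 1 added later. The fit was also run on simulated data in which arrays deviate independently, so shared deviations of same-numbered arrays were not covered. Further probe sets of a member were tested in the same model over all probe sets kept. Levels of different probe sets were not compared.

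The members and the gene lists were chosen with earlier results of these data known. From each list, up to 4 genes with the smallest adjusted p in 16 against 3 mM (young), 11 against 3 mM (old) or 4 h against time 0 are named, with replicates not overlapping. The labels call the replicates biological and do not mention pooling of mice. The p-values cover only the spread among these samples, part of which may be technical. In cultured young islets of set B, same-numbered arrays deviated together from their group means (r 0.17 to 0.42 over 6 pairs). So did those of the time course (0.55 to 0.63 over 3 pairs), and both were taken as paired. The p-values are nevertheless from the fit without a replicate block, which leaves this pairing out. The block, fitted for old islets too, added 23 calls over all members and comparisons and removed 0. Where the block changes a call, its value stands beside only some results. Several other changes are given as counts in the section on processing. The 2 most similar arrays (correlation 0.989) differed at 41939 probe sets. Alternatives were an offset of 1, no filter, quantile normalization, the mean of a gene's probe sets, no array set, a replicate block, and leaving out each array.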

Additional observations from a re-analysis of the deposited data

Results flagged for a closer look

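Kdelr3 stood apart on 1 array of young islets at 11 mM: replicate 2 read 249, against 134, 127 and 122 on the other 3. The gap of replicate 2 to its nearest neighbour was 0.906 of the group's range, above the limit set for 4 samples. About 1 group in 20 is marked in this way by chance. The group spans both array sets, which differ for Kdelr3 by -0.51 on the log2 scale (set A minus set B), and replicates 3 and 4 are those of set A. Replicate 2 lies in set B and so enters the comparisons of young cultured islets.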

How the results depend on the processing

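The number of members called out of 9 moved by up to 3 without the array set, with the replicate block and without single arrays. Without the array set it was 5 (16 against 3 mM, young), 1 (11 against 5.5 mM, old), 2 (4 h against time 0), 0 (old against young, fresh) and 1, which was lower (old against young, 11 mM). In that fit Sec31a at 11 against 3 mM in young islets turned to -0.092 (adjusted p = 0.834), against 0.56 with the set, because 11 mM arrays of set A then enter, and Sec24a and Kdelr2 gave 1.22 and 1.48, against 0.64 and 0.44.

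With the replicate block the counts were 3 and 5 in young islets (5.5 against 3 and 11 against 5.5 mM), 1 and 5 in old islets, 1 and 2 at 11 mM against fresh in young and in old islets, and 4 in each age comparison. Old arrays were not taken as paired (r 0.056 to 0.2 over 6 pairs). With the block, Sec61b and Kdelr3 also passed there at 11 against 3 mM (adjusted p = 0.0385 and 0.0074). With an offset of 1, without the filter and after quantile normalization, the count between ages at 11 mM was 1. It was also 1 at 11 against 5.5 mM (young) without the filter, at 5.5 against 3 mM in either age after quantile normalization and with the mean of probe sets, and 2 between ages in fresh islets with that mean. That mean also turned Sar1a at 11 against 3 mM in old islets to -0.45 (adjusted p = 0.0111) and Creb3l2 at 4 h to -0.057 (adjusted p = 0.842). Except where named, the causes were not tested.

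Leaving out 1 array at a time, the counts ranged from 6 to 9 and from 5 to 7 in young islets at 16 and at 11 against 3 mM, 0 to 2 at 11 against 5.5 mM in young and in old islets, 3 to 5 in old islets at 11 against 3 mM, 1 to 4 at 4 h, 2 to 5 in old islets at 3 mM against fresh, 0 to 1 between ages in fresh islets and 1 to 2 at 11 mM. They were 0 throughout in the comparisons with 0 calls, and 1 throughout for 2 days against 4 h. Ero1b at 16 against 3 mM in young islets ranged from 1.08 to 1.36 over these, and passed in all 4.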
